A study of Mus musculus with 8 samples.

Results

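The ETS factors that act downstream of the kinase ERK were followed in NIH3T3 cells, an established line of mouse fibroblasts, after serum stimulation with and without cordycepin. The 10 genes were Etv1, Etv4, Etv5, Etv6, Elk1, Elk3, Elk4, Ets1, Ets2 and Erf. All probes bearing these names were taken, which gave 19 of the 55681 probes on the array for 10 of 35715 gene names. All cells were grown in medium with 10% newborn bovine serum and kept for 24 h in 0.5% serum before treatment. The cordycepin + serum group (3 arrays) received 20 µM cordycepin, an adenosine analogue lacking the 3′ hydroxyl group, and 60 min later 0.1 volume of serum for 30 min. The serum group (3 arrays) received 0.1% DMSO, the solvent, and serum at the same times. The no serum group (2 arrays) received DMSO without serum. The labels do not say whether arrays of a group came from separate cultures, so p-values measure the spread between these arrays only.

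ETS proteins share a DNA-binding domain that recognises sequences around a GGAA core. Growth factors in serum activate the kinases RAF, MEK and ERK in turn, and ERK phosphorylates ETS proteins that are already present in the cell. Elk1, Elk3 and Elk4 are ternary complex factors, which bind DNA together with serum response factor (SRF) at the promoters of immediate early genes such as Fos. Etv1, Etv4 and Etv5 form the PEA3 group of activators, Ets1 and Ets2 are activators with an ERK docking domain, and Etv6 and Erf are repressors. Erf leaves the nucleus when ERK phosphorylates it. Arrays measure the mRNAs of these factors and not their phosphorylation.

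The upstream sequences of the members whose mRNA fell, and of a pair that varied together, are shown for reference. Promoters of 8 of the 10 members were matched in RefSeq (build GRCm38.p6), with 12 start sites in all. The 250 bases before the start of Erf and Etv6, and before the farthest upstream start of Etv1 and Etv5, are given 5′ to 3′, with GGAA, or TTCC where the core lies on the opposite strand, in capitals.
Erf (chr7:25250759-25251008, minus strand): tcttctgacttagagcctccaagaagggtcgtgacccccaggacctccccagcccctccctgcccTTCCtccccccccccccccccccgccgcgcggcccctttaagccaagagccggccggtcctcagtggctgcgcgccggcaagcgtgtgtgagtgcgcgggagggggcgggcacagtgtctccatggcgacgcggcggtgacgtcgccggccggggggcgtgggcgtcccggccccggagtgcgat
Etv6 (chr6:134035450-134035699, plus strand): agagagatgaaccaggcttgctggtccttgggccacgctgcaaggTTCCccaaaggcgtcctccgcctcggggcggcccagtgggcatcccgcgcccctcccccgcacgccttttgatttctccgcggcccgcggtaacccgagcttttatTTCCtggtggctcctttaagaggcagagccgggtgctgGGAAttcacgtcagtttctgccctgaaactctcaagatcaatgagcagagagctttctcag
Etv1 (chr12:38779832-38780081, plus strand): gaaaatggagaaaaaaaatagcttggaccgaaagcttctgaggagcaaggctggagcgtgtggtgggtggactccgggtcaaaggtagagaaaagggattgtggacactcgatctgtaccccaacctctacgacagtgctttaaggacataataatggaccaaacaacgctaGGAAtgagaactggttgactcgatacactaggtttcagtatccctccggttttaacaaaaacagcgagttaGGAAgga
Etv5 (chr16:22439571-22439820, minus strand): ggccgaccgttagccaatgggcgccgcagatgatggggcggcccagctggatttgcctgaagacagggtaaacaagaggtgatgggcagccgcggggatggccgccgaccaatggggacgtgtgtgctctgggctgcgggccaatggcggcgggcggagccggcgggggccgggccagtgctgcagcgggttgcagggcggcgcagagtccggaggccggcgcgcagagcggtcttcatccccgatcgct
The core GGAA on either strand occurred 1 time before Erf, 3 times before Etv6, 2 times before Etv1 and 0 times before Etv5 in these windows. Such a short motif is common, as 93.5% of all 32851 RefSeq promoter windows of this length held it, with a median of 3 per window. The longer motif GGAAGT, which contains the core, occurred before Elk4 and at the downstream start of Etv5, and in 19.7% of all windows. The motif CCGGAAGT occurred before Elk4 only among the members with a promoter, and in 2.88% of all windows. The CArG box, the site of SRF, was in none of the 12 member windows and in 1.47% of all windows. A match of letters is not evidence of binding.

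Each mRNA was read by probes of 60 bases. The probes behind the main results are given by their mm9 position and their first 30 bases, 5′ to 3′, with bases that lie in a run of at least 20 shared with another probe in capitals.
Erf (chr7:26028347-26028406, minus strand): gggtgggacgtgagggggctgctggagaat
Etv6 (chr6:134216664-134216723, plus strand): cctgttgtagtctcatggtgtttctggttT
Elk1 (chrX:20512461-20512520, minus strand): gttagccatctcaaggagaaacatagttaa
Elk1 (chr12:100686807-100686866, minus strand): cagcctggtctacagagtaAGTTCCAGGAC
Etv5 (chr10:71170544-71170603, plus strand): tgcaccctgccgagctgcgtatattctgta
The gene Elk1 lies on chromosome X, but its brighter probe is placed on chromosome 12. Of its 60 bases, 41 lay in runs of at least 20 that it shared with 11 probes named for other genes, and the accessions listed for it belong to Elk1, Glrx2 and Mfsd4a. Etv5 has a single probe, which is placed on chromosome 10 while the gene lies on chromosome 16. That probe shared no such run with another, and its accession belongs to Etv5. The Etv6 probe, the only one of its gene, shared runs with 4 probes of other names. In all, 24 of its 60 bases lay in such runs, of which 1 is among the 30 printed. Those 4 probes had mean levels of −7.06 to 1.71, beside 0.51 for Etv6, on the log2 scale defined below. The brighter Ets1 probe shared a run with a probe of Etv2, another ETS gene. The remaining member probes lay on the chromosome of their gene and shared no run of this length.

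Levels are given as log2 signal after subtraction of the array's own 75th percentile, so that 0 marks a probe at that percentile and a difference of 1 is 2-fold. On the 8 arrays the 75th percentile lay at a signal of 350.5 to 802. The share of probes well above background was 51.1 to 57.1%. No spot was saturated. All 10 fibroblast markers were well above background on all 8 arrays and none passed the test in any comparison. The epithelial markers Cdh1 and Krt18 and the endothelial marker Cdh5 were above background on no array. Cd68, from the leukocyte list, was 3.04 ± 0.21 higher with cordycepin (SE, limma adjusted p = 5.17e-05), while the leukocyte marker Ptprc was above background on 3 of 8 arrays. Of 5 leukocyte markers 2 could be tested and 1 passed, and the mean log2 level of the list was −3.41 to −2.92 on the cordycepin arrays and −4.16 to −3.56 on the serum arrays. Of 5 epithelial markers 2 could be tested, and Krt14 was 0.53 ± 0.14 higher (limma adjusted p = 0.0312). The epithelial list had a mean level of −5.91 to −5.52 with cordycepin and −6.07 to −5.88 with serum. None of the 3 tested endothelial markers passed. The part that this plays in the values of the ETS factors was not tested. A lower level in such bulk RNA does not tell less RNA per cell from fewer cells with that RNA.

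Of the 19 member probes, 18 could be tested, because in 1 group or more all arrays read them well above background. The exception was the dimmest of 4 Elk4 probes, which was above background on 1 of 8 arrays. For each gene the brightest probe is reported and the others are given beside it.

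Whether cordycepin altered the mRNAs of these factors in cells receiving serum was asked first. Erf and Etv6, both repressors, fell, and no member passed higher. Elk3, which also represses as long as it is not phosphorylated, did not pass. Among the 18 probes tested, 2 passed lower (adjusted p under 0.05) and 0 passed higher, and 1 of them, Erf, was also lower by at least 2-fold. Across all 30859 probes tested, 7.36% passed lower and 12.0% higher, and 2.87% were lower and 7.63% higher by at least 2-fold. At an unadjusted p under 0.05 there were 5 member probes, beside 32.0% of all probes tested. The median of the 18 differences was −0.04, beside 0.10 over all probes. These counts of 5, 2 and 1 are close to what the shares over all probes give for 18 probes and say nothing about the family as a whole.

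Erf had log2 levels of 3.42, 3.29 and 3.04 in the cordycepin + serum arrays, 4.28, 4.76 and 3.95 in the serum arrays, and 3.67 and 3.75 in the no serum arrays. Every cordycepin array was below every array of the other groups, and the serum arrays were the highest. The mean was 3.25 ± 0.20 (SD, n = 3) with cordycepin and serum and 4.33 ± 0.41 (SD, n = 3) with serum. Erf thus fell by 1.08 on the log2 scale with an SE of 0.21, or 2.11-fold (limma adjusted p = 0.00736). Within rows of the slide the difference was −0.92 in row 1 (2 arrays against 1) and −1.32 in row 2 (1 against 2). As all cordycepin arrays lay below all serum arrays, the sign within rows was fixed in advance and adds no support. The fall of Erf was no longer 2-fold without cordycepin replicate 3 (−0.97, limma adjusted p = 0.0293) or without serum replicate 2 (−0.86, adjusted p = 0.012). With centring on spike-in probes it was −1.13 with an adjusted p of 0.275.

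Etv6 had log2 levels of 0.12, 0.16 and 0.18 with cordycepin and serum, 0.82, 1.02 and 0.62 with serum, and 0.39 and 0.78 without serum. The 3 cordycepin arrays lay close together and below all others, while the serum and no serum arrays overlapped. Etv6 fell by 0.67 with an SE of 0.15, or 1.59-fold (limma adjusted p = 0.0143). Within rows of the slide the difference was −0.68 and −0.64, with the sign again fixed by the separation of the arrays. The fall of Etv6 did not pass with centring on spike-in probes (−0.72, limma adjusted p = 0.946) or when dim probes were not filtered (adjusted p = 0.0557). With 24 of its 60 bases in shared runs, how much of the signal of this probe comes from Etv6 mRNA was not tested.

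**Figure D1:**
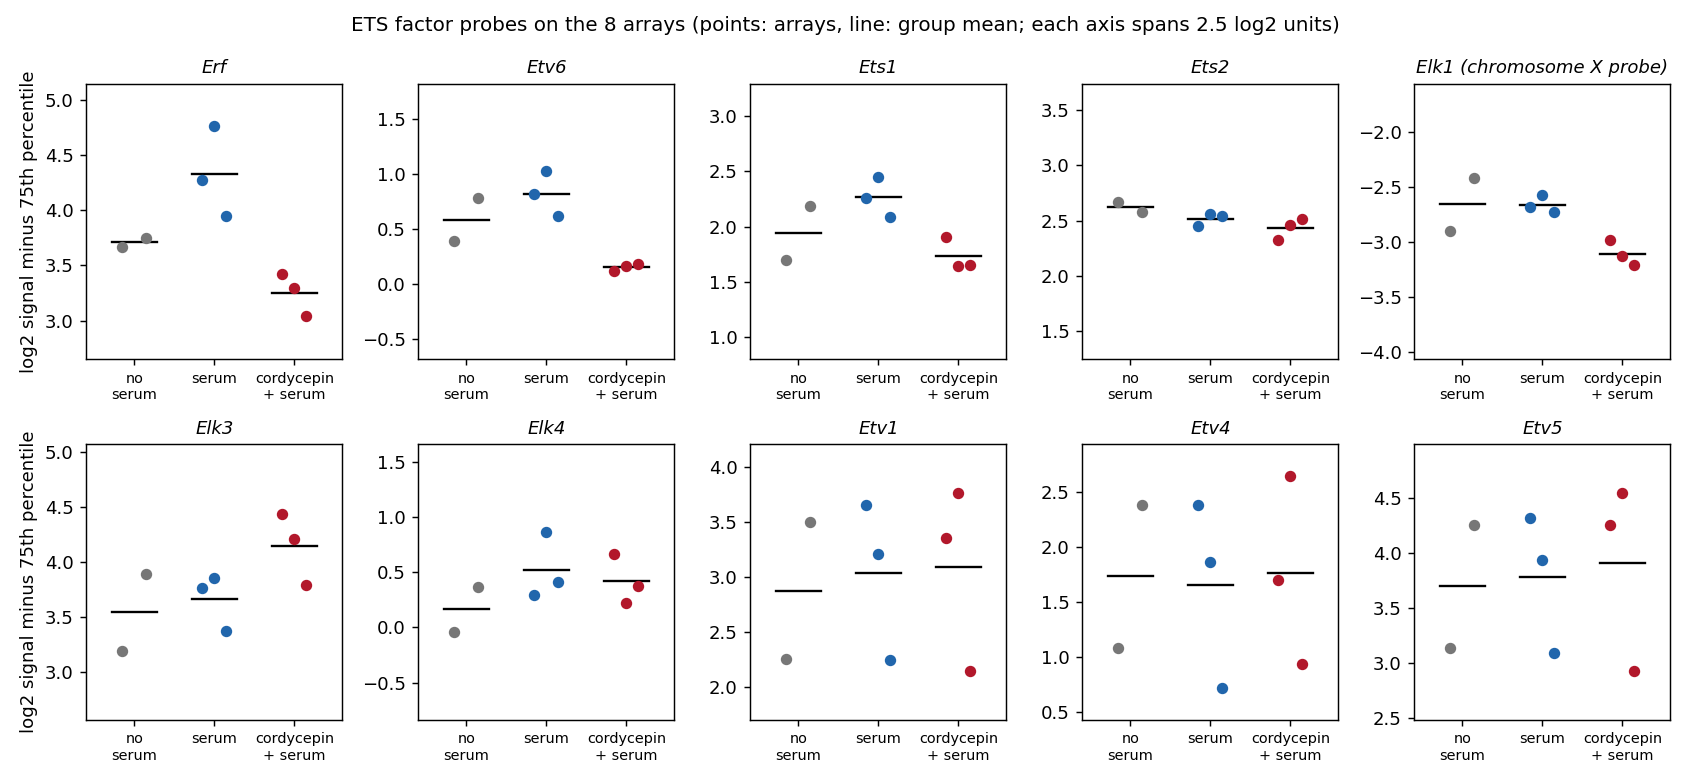
Log2 signal minus the 75th percentile of the array (vertical axis, 2.5 units in every panel) for the 10 ETS factors in the no serum, serum and cordycepin + serum groups; points are arrays and lines are group means. For Erf, Etv6, Ets1 and Elk1 (chromosome X probe) all 3 cordycepin + serum arrays lie below all 3 serum arrays, whereas for Etv1, Etv4 and Etv5 the spread within each group is larger than any difference between groups.

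Ets1, a founding member of the family, was close to the threshold but did not pass. Its brighter probe was at 1.90, 1.65 and 1.65 with cordycepin and serum, at 2.26, 2.45 and 2.09 with serum, and at 1.69 and 2.19 without serum. The cordycepin arrays were below all serum arrays but overlapped the no serum arrays. The difference was −0.53 ± 0.17 (SE, limma adjusted p = 0.0601), and the other Ets1 probe gave −0.59 ± 0.22 (adjusted p = 0.105). Ets1 passed under 5 of 19 alternatives, with limma adjusted p of 0.0256 for the brighter probe with normexp background correction, 0.0406 with only both groups compared in the fit, and 0.0458 and 0.0474 without no serum replicate 1 or 2, while the mean of both probes had 0.0456. The related Ets2 was the steadiest member, with 2.32 to 2.67 over all 8 arrays and a difference of −0.09 ± 0.10 (SE, limma adjusted p = 0.609).

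The ternary complex factors did not pass. The chromosome X probe of Elk1, the best studied of them, was at −2.98, −3.13 and −3.21 with cordycepin and serum, at −2.68, −2.58 and −2.73 with serum, and at −2.90 and −2.41 without serum. All cordycepin arrays were thus the lowest of the 8, and the difference from serum was −0.44 ± 0.15 (SE, limma adjusted p = 0.0708). The separation of this dim probe depended on the background correction. With normexp correction its groups overlapped, at −2.36 to −2.03 with cordycepin and serum, −2.19 to −2.04 with serum and −2.42 to −1.96 without serum. The chromosome 12 probe named Elk1, with 41 of its 60 bases in shared runs, differed by 0.29 ± 0.15 (adjusted p = 0.242). The 2 probes thus had opposite signs. How much of the signal of the chromosome 12 probe comes from Elk1 mRNA was not tested. The 11 probes that shared a run with it differed by 0.12 to 0.30, and none of them passed.

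Elk3 had the highest positive difference of the members. It was at 4.44, 4.21 and 3.79 with cordycepin and serum, at 3.77, 3.86 and 3.38 with serum, and at 3.20 and 3.89 without serum, and the groups overlapped. The difference was 0.48 ± 0.24 (SE, limma adjusted p = 0.213), while the other Elk3 probes gave 0.09 and 0.21. Elk4, also called SAP1, differed by −0.10 ± 0.20 (adjusted p = 0.759) on its brightest probe and by −0.06 and −0.08 on the other 2 tested probes.

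All cordycepin arrays lay below all serum arrays for 5 member probes, which belonged to Erf, Etv6, Ets1 and Elk1. Over all probes tested this was so for 13.4%.

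**Figure D2:**
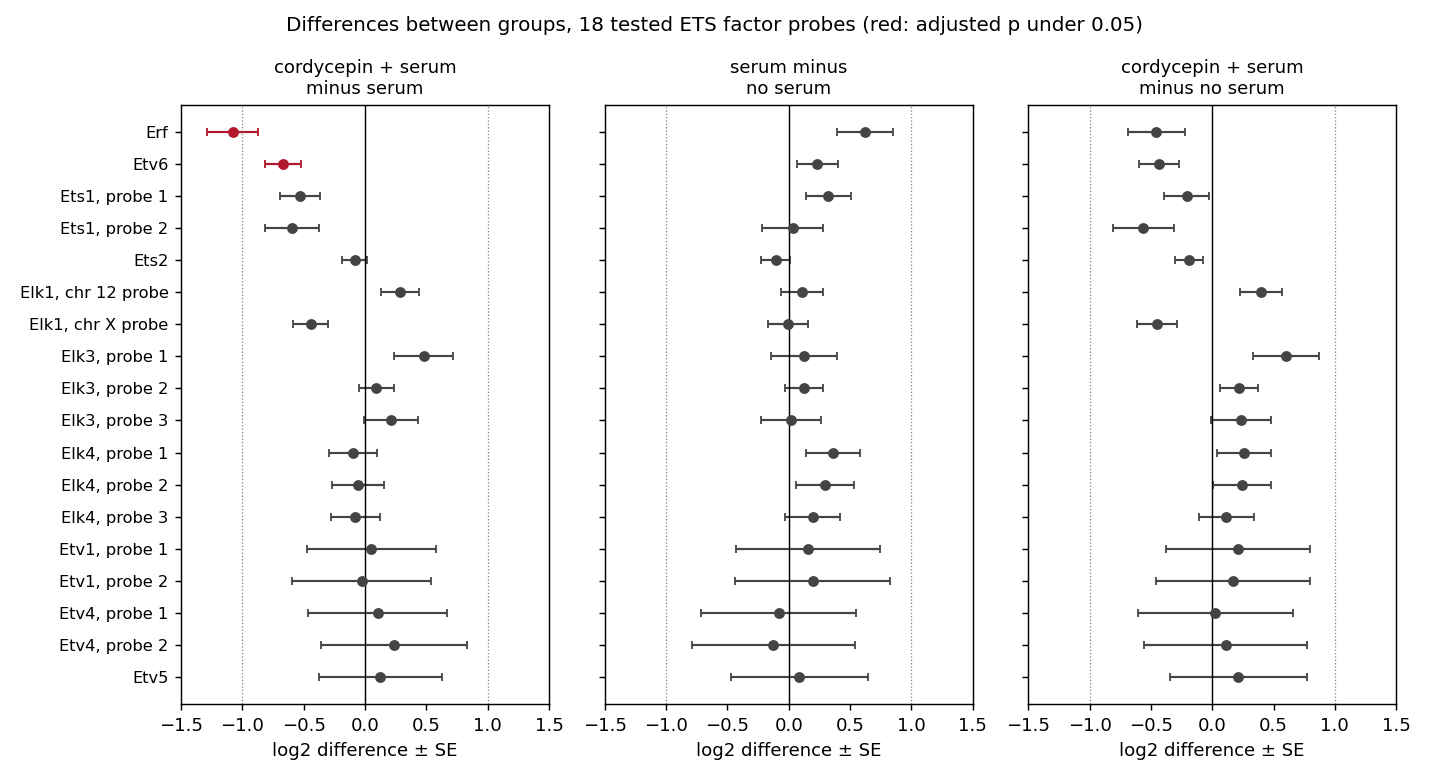
Log2 differences with standard errors (horizontal axis) for the 18 tested probes of the 10 ETS factors, in the comparisons of cordycepin + serum with serum, of serum with no serum, and of cordycepin + serum with no serum. Erf (−1.08) and Etv6 (−0.67) are the members in red, which passed an adjusted p of 0.05, both in the first panel; dotted lines mark 2-fold, and the widest error bars are those of Etv1, Etv4 and Etv5.

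The PEA3 group had the widest spread within groups of the tested members. Etv1, Etv4 and Etv5 differed little between group means but varied strongly between arrays of the same group, and they did so together. Etv5 was at 4.25, 4.54 and 2.93 with cordycepin and serum, at 4.32, 3.94 and 3.096 with serum, and at 3.14 and 4.26 without serum. Etv1 was at 3.36, 3.76 and 2.15, at 3.65, 3.21 and 2.25, and at 2.25 and 3.50 in the same order of arrays. Etv4 was at 1.70, 2.64 and 0.94, at 2.38, 1.86 and 0.72, and at 1.08 and 2.38. In all of them the 3 lowest arrays were cordycepin replicate 3, serum replicate 3 and no serum replicate 1, that is, 1 array of each group. Within each group the arrays had the same order for all 3 genes.

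The gap between these 3 arrays and the remaining 5 was 0.96 for Etv1, 0.80 for Etv5 and 0.62 for Etv4, out of a range over all arrays of 1.61, 1.62 and 1.92. Since the arrays fall apart in this way, no correlation is given. Among 13419 genes with a tested RefSeq mRNA probe, Etv5 was nonetheless the gene that followed Etv1 most closely by Pearson's r over the 8 arrays, and Etv1 the one that followed Etv5 most closely. The same 3 arrays were lowest for 7 of the 18 member probes tested, beside 3.06% of all probes. The 3 arrays were taken from Etv1 itself, and 5 of the 7 are probes of Etv1, Etv4 and Etv5. This count is therefore not a test of a shared pattern. The others were a dimmer probe of Elk3 and a dimmer probe of Elk4, whose levels spanned 0.55 and 0.74 over all arrays. The brightest probes of Elk3 and Elk4 had other lowest arrays. The standard deviation within groups was 0.76 to 0.91 for the 5 probes of the PEA3 group, and 98.8 to 99.5% of all probes tested had a smaller one. For the other tested members it was 0.08 (Ets2) to 0.34 (Elk3).

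The 3 low arrays were not those of a row of the slide, as 2 lay in row 2 and 1 in row 1. Their 75th percentile signals were 460.3, 596 and 802, and those of the other arrays were 350.5 to 626. Their share of probes above background was 55.7, 54.7 and 57.1%, against 51.1 to 56.0% on the others. The same 3 arrays were lowest for the 3 genes after quantile normalisation and after normexp background correction. With centring on spike-in probes, which moves whole arrays, this held for 0 of the 3 genes. Cordycepin differences were 0.05 ± 0.53 for Etv1, 0.10 ± 0.57 for Etv4 and 0.12 ± 0.50 for Etv5 (SE, limma adjusted p = 0.958, 0.919 and 0.889). With such errors a change of 2-fold in either direction was not detectable in these genes, and the signs of the differences depended on single arrays.

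**Figure D3:**
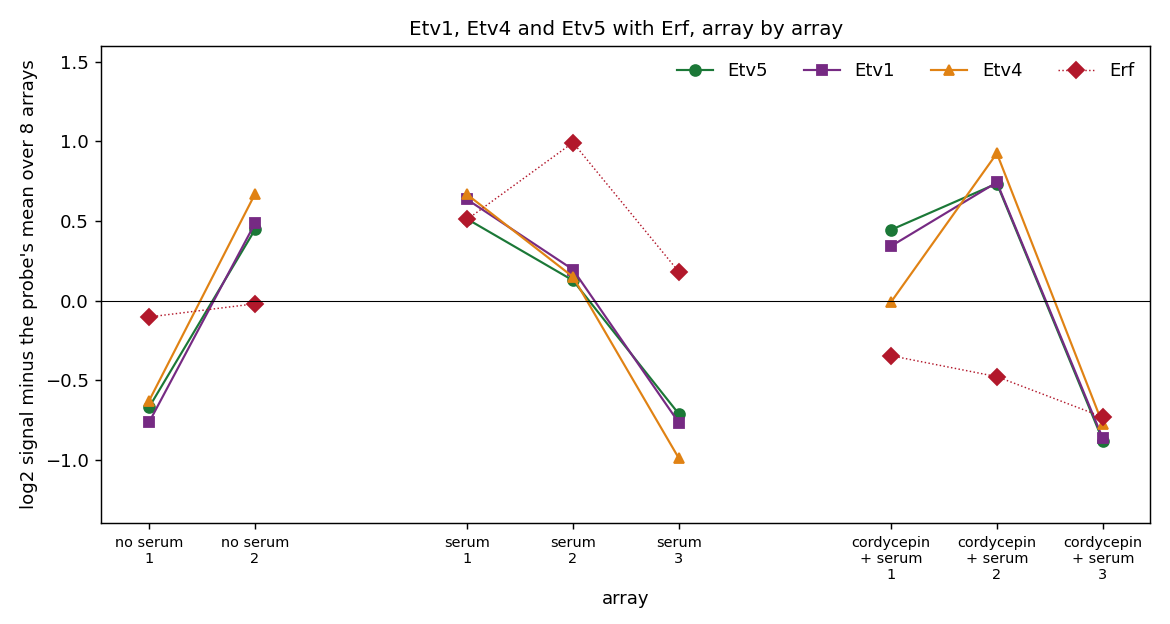
Log2 signal of Etv1, Etv4, Etv5 and Erf on each of the 8 arrays (horizontal axis), as the difference from the mean of that probe over all arrays; lines join arrays of 1 group for legibility and imply no order. Etv1, Etv4 and Etv5 are low together on no serum replicate 1, serum replicate 3 and cordycepin + serum replicate 3, while Erf is higher in the serum group and lower in the cordycepin + serum group.

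Serum itself was compared next. None of the members passed: of 18 probes, 0 passed higher and 0 lower with limma, beside 1.14% higher and 1.13% lower over all probes, or 0.849 and 0.878% with a minimum of 2-fold. At an unadjusted p under 0.05 there was 1 member probe, that of Erf, beside 10.3% of all probes. Erf was 0.62 ± 0.23 higher with serum than without (SE, limma adjusted p = 0.354), and all 3 serum arrays were above both no serum arrays. The next in size were Elk4 (0.36 ± 0.22), Ets1 (0.32 ± 0.19) and Etv6 (0.23 ± 0.16). Ets2 was −0.11 ± 0.12, with every serum array below both no serum arrays. How many of all probes were separated like Erf or Ets2 was not computed. The median over the 18 probes was 0.12, beside −0.02 over all probes.

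The cells given cordycepin and serum were then compared with the no serum cells, to see where the members stood relative to the starved state. Again 0 of 18 probes passed in either direction with limma, while 9.16% of all probes passed higher and 5.95% lower, and 6.48 and 2.99% did so by at least 2-fold. At an unadjusted p under 0.05 there were 2 member probes, those of Etv6 and of Elk1 on chromosome X, beside 27.3% of all probes. Erf was −0.46 ± 0.23 (SE, limma adjusted p = 0.246), Etv6 −0.43 ± 0.16 (adjusted p = 0.133) and the chromosome X probe of Elk1 −0.45 ± 0.16 (adjusted p = 0.116). All 3 cordycepin arrays were below both no serum arrays for these 3 and for Ets2 (−0.19 ± 0.12). For the chromosome 12 probe of Elk1 they were above both. The share of all probes separated in this way was not computed, so these cases say nothing about the members as a group. Elk3 was 0.60 ± 0.27 higher (adjusted p = 0.194). This comparison and the previous ones share arrays, so they are not independent of each other.

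For Erf the order of the groups was therefore serum, no serum, cordycepin + serum, with means of 4.33, 3.71 and 3.25. Serum and cordycepin + serum differed at the adjusted p used. The no serum level lay between them, and neither difference from it passed, which is not evidence of no difference. For Etv6 the means in the same order were 0.82, 0.59 and 0.15, again with the outer groups differing. For the remaining 8 members no pair of groups passed at the adjusted p used.

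The genes that most resembled Erf and Elk3, the members with the lowest and highest cordycepin difference, were taken from the 13419 genes by Pearson's r over the 8 arrays, which share the groups. For Erf they were Kirrel (r = 0.986), Pdlim5 (0.981) and Ttc19 (0.975). Etv6 (0.914) and Ets1 (0.902) stood at ranks 143 and 192. For Elk3 they were Smim13 (0.995), Fbln5 (0.992) and Arpc3 (0.990), whose levels spanned 0.57, 0.78 and 0.55 over all arrays.

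The members were set beside the rest of their pathway. The ERK cascade list had 17 tested genes, from Grb2 and Sos1 through the RAS, RAF, MEK and ERK genes to the RSK kinases. With cordycepin, 1 passed higher and 1 lower, and 0 changed by as much as 2-fold. Over all probes tested, 12.0% passed higher and 7.36% lower, and 7.63 and 2.87% did so by at least 2-fold. These counts are near those shares and say nothing about the cascade as a whole. The genes that passed were the exchange factors that load RAS. Sos1 had a difference of 0.96 ± 0.10 and Sos2 one of −0.88 ± 0.16 (SE, limma adjusted p = 0.000322 and 0.0064). With serum, 0 of the 17 genes passed, beside 1.14% higher and 1.13% lower over all probes.

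The listed genes on which ternary complex factors act changed. Of 10 targets of SRF and ternary complex factors, 9 passed higher with serum, all by at least 2-fold. All 10 passed lower with cordycepin, 7 of them by at least 2-fold. Over all probes tested, 1.14% passed higher with serum (0.849% by at least 2-fold) and 7.36% lower with cordycepin (2.87% by at least 2-fold). The median differences of the 10 targets were 2.62 with serum and −1.42 with cordycepin. The lowest was Egr3 (−2.60 ± 0.25, SE, limma adjusted p = 0.000228), a zinc finger factor, and Ier2 fell by 1.69 ± 0.14 (adjusted p = 9.28e-05). Fosb and Fos, which encode partners of Jun proteins in the AP-1 dimer, fell by 1.67 ± 0.17 and 1.62 ± 0.26 (adjusted p = 0.000264 and 0.0028).

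Genes known as outputs of ERK, many of which carry ETS sites (not scanned here), were mostly lower with cordycepin. Of 12, 9 passed lower, 6 by at least 2-fold, beside 7.36 and 2.87% of all probes tested, and the median of the 12 was −1.15. Fosl1, a partner of Jun, fell by 3.07 ± 0.20, and the phosphatase gene Dusp5 differed by −3.305 ± 0.191 (SE, limma adjusted p = 4.13e-05 and 2.28e-05). Spry4, an inhibitor of the pathway, was above background on no cordycepin array and was at least 3.33-fold lower (adjusted p = 6.92e-05). Spry4 was tested only because the serum and no serum arrays, where it was higher, read it above background. With serum, 5 of the 12 passed higher, all by at least 2-fold, beside 1.14 and 0.849% of all probes tested. Between cordycepin + serum and no serum, 5 of the 12 passed lower and 1 higher, beside 5.95 and 9.16% of all probes tested. The falls with cordycepin are thus not only a loss of what serum had raised. These lists hold genes that the study chose on the same arrays, so their counts are not independent evidence.

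**Figure D4:**
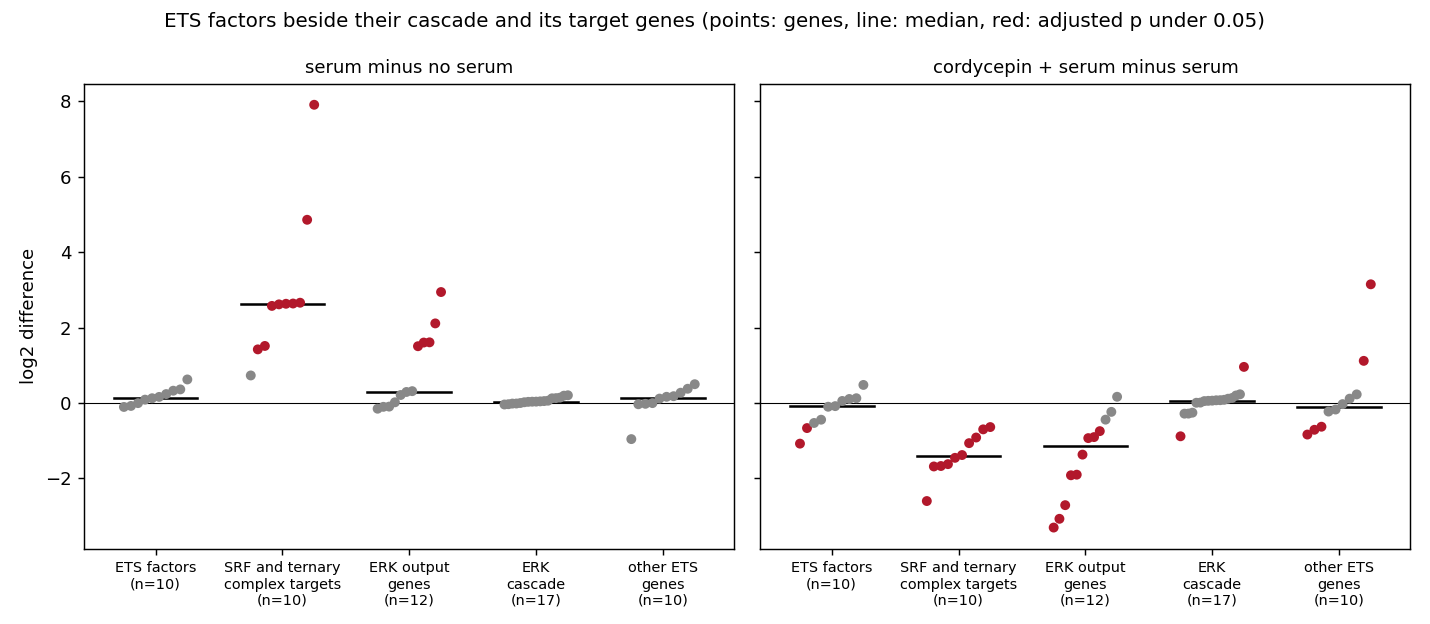
Log2 differences (vertical axis) with serum and with cordycepin for the 10 ETS factors and for the tested genes of 4 lists; each point is a gene, lines are medians and red points passed an adjusted p of 0.05. SRF and ternary complex targets lie at a median of 2.62 with serum and −1.42 with cordycepin, whereas among the ETS factors and the ERK cascade only Erf, Etv6, Sos1 and Sos2 are red, all of them with cordycepin.

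Among 17 other ETS genes, 10 were tested and 4 were above background on no array. With cordycepin, 3 of the 10 passed lower, none by 2-fold, and 2 passed higher, both by at least 2-fold. Over all probes tested, 7.36% passed lower and 12.0% higher, and 2.87% and 7.63% did so by at least 2-fold. Those lower were Spdef (−0.84 ± 0.18), Elf2 (−0.71 ± 0.09) and Elf1 (−0.63 ± 0.12), with limma adjusted p of 0.0138, 0.00102 and 0.00656. Spib, a factor of lymphoid cells, was 1.12 ± 0.13 higher (adjusted p = 0.000642). Its probe was dim, at −3.95 with cordycepin and serum, −5.06 with serum and −5.23 without serum, and was above background on 7 of 8 arrays. Etv2, known from blood vessel development, was above background on all 3 cordycepin arrays and no other array, and was at least 2.32-fold higher (adjusted p = 0.00334). Etv2 was tested only because the cordycepin arrays, where it was high, read it above background. Its p-value and its place in the count are therefore not independent of that filter. With serum, 0 of the 10 passed, beside 1.14% higher and 1.13% lower over all probes.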

How the data were processed

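RNA of 8 samples was labelled with Cy3 and hybridised to 1-colour Agilent 60K mouse arrays, all on 1 slide. The deposited files hold a linear intensity per spot, which, per the file headers, Feature Extraction 10.7.3.1 had corrected for background. Probe positions refer to mm9. Of 62976 spots, 3671 controls and all spots marked as outliers were left out. From log2 intensity the 75th percentile of each array was subtracted, spots of a probe were averaged, and 30859 of 55681 probes, which all arrays of some group read well above background, were tested. Values are thus relative within an array, and a shift common to most RNAs is invisible.

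The package limma 3.58.1 (R 4.3.3) fitted a mean for each group to all 8 arrays, and its two-sided p-values were adjusted by Benjamini and Hochberg over all tested probes. The number of arrays limits the precision. The methods of the study name limma for arrays. The members, gene lists, motifs and alternatives were chosen with earlier results of these data known. At most 4 list genes with the largest change among those passing were named, and Elf1 besides, to complete a count, after its value was seen. Where a probe was above background on no array of a group, the bound uses, per array, the higher of its own value and the lowest signal well above background. The calculation was tested on simulated data. Figures were drawn with matplotlib 3.10.9.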

Additional observations from a re-analysis of the deposited data

How the results depend on the processing

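The following alternatives were listed with the design, except the chromosome X probe of Elk1 and the other scalings of the order of arrays in Etv1, Etv4 and Etv5, which were chosen after seeing the data. The cause of a change was not tested unless stated. Of 573 log2 differences of members under alternatives, 47 changed sign, and all of these belonged to values that had not passed. Many of the 573 could not change. Another threshold or filter, or leaving out an array outside the comparison, does not move a difference, so 47 of 573 understates how often signs can turn. The numbers of members called higher with cordycepin, and called in either direction in the other comparisons, were 0 under every alternative. The number called lower with cordycepin, 1 (Erf), was 0 with centring on spike-in probes, 2 with no minimum fold change, and 0 to 1 when single arrays were left out, for probes and for genes. Erf and Etv6 kept their direction with cordycepin in the 10 of 19 alternatives each that could move the value (−1.27 to −0.86 and −0.77 to −0.56). Where such an alternative only left out an array, the direction was fixed in advance, as all cordycepin arrays lay below all serum arrays. Those alternatives show the size of the difference only. Centring on spike-in probes moved the median of all probes to −0.35 with serum and −0.31 for cordycepin and serum against no serum.

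The correlations of deviations from group means for same-numbered arrays were −0.17 to 0.23. With so few arrays per group the deviations depend on each other, so these correlations cannot show whether replicate numbers pair the arrays. With a replicate block, the Erf difference was −1.08 (adjusted p = 0.00508), no count changed, and the serum difference of Etv4 turned to 0.36. The SE of the cordycepin difference went from 0.526 to 0.301 for Etv1, from 0.566 to 0.335 for Etv4 and from 0.500 to 0.282 for Etv5.

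Signs that turned with cordycepin were those of Etv1 with spike-in centring (−0.00201) and with slide row as a block (−0.12), Etv4 and Etv5 with slide row (−0.0588 and −0.0499), and Elk1 with the mean of its probes (−0.0793) or its chromosome X probe (−0.44). With serum, spike-in centring turned Etv1 (−0.18), Etv5 (−0.25), Etv6 (−0.10), Elk1 (−0.23), Elk3 (−0.21) and Ets1 (−0.0123). Elk1 also turned with quantile normalisation (−0.0174) and on chromosome X (−0.00547), and Etv4 with slide row (0.00204). For cordycepin and serum against no serum, spike-in centring turned Etv1 (−0.18), Etv4 (−0.37), Etv5 (−0.18) and Elk4 (−0.13). Etv4 also turned with normexp correction (−0.0116) and slide row (−0.0568), and Elk1 with the mean of its probes (−0.0269) and on chromosome X (−0.45).

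When single arrays were left out, the cordycepin difference ranged from −0.34 to 0.52 for Etv1, −0.36 to 0.52 for Etv4, −0.22 to 0.61 for Etv5 and −0.22 to 0.0686 for Elk4. The serum difference ranged from −0.47 to 0.78 for Etv1, −0.73 to 0.57 for Etv4, −0.47 to 0.65 for Etv5 and −0.22 to 0.47 for Elk3. Against no serum, cordycepin and serum gave −0.41 to 0.84 for Etv1, −0.625 to 0.675 for Etv4, −0.35 to 0.77 for Etv5 and −0.45 to 0.0383 for Ets1. Leaving out an array without serum leaves 1 in that group, which is assumed to vary like the others.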

Other observations

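Among the other ETS genes, Etv3, a repressor related to Erf, was 0.46 ± 0.13 higher with cordycepin and serum than without serum (SE, limma adjusted p = 0.0426), 0.50 ± 0.13 with serum alone (adjusted p = 0.114) and −0.03 ± 0.11 for cordycepin (adjusted p = 0.873). It was looked at after the values were seen.

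The genes that followed the PEA3 group most closely over the 8 arrays were also looked up afterwards. After Etv5, those for Etv1 were Slc10a3 and Sf3b4, whose levels spanned 0.32 and 0.76 on the log2 scale, against 1.61 for Etv1. For Etv4 they were Nop16, Prkg2 and Adgre5, with spans of 0.46, 0.93 and 0.71 against 1.92, while Etv1 and Etv5 stood at ranks 14 and 35 of 13419 genes.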
